A study of Aedes aegypti with 12 samples.

Results

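Among the genes annotated in the yellow fever mosquito Aedes aegypti are pairs of loci whose descriptions are the same once a trailing "-like" is left out. In 3 such pairs, 6 genes of the 19256 in the deposited count table, one copy had less RNA and the other copy more RNA in the brain of AaegGr34 mutants than in the brain of wild-type mosquitoes. The pairs are N-acetyltransferase eco (LOC5568379 and LOC5568392), cytochrome c oxidase subunit 7A1 (LOC110673978, described as -like, and LOC5567338) and mitochondrial ribosomal protein L40 (LOC5569568 and LOC110681241, described as -like), below called eco, COX7A1 and L40. The 6 genes were chosen by their measured brain values, so the brain difference of each copy is given as a description and was not tested. The fat body genotype contrast was tested, with the reservation that all earlier results of these data were known when the pairs were picked. All 6 genes passed the filter on low counts in both tissues. In fat body LOC5568392 did so with the help of the mutant libraries, since wild-type replicate 1 held 5.5 counts of it. Each copy, and the sum of each pair, was compared across genotypes in brain and in fat body.

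In Drosophila, Eco (establishment of cohesion) acetylates the Smc3 subunit of cohesin, the ring complex that holds sister chromatids together and also acts in gene regulation. Cytochrome c oxidase is complex IV of the respiratory chain, and subunit 7A is one of its small subunits encoded in the nucleus. In mammals, 7A1 is the heart and muscle form. L40 belongs to the large subunit of the mitochondrial ribosome, which translates the messages of the mitochondrial genome, complex IV core subunits among them.

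The series holds polyA RNA-seq of brain and fat body, the insect organ of storage and yolk protein synthesis. It comes from wild-type mosquitoes of the Liverpool strain and from mosquitoes mutant for AaegGr34, a gustatory receptor gene. Each of the 4 groups (wild-type brain, mutant brain, wild-type fat body, mutant fat body) has 3 libraries, or 12 in all, described by the submitters as biological replicates. Both strains were reared alike with constant access to sucrose. The kind and place of the Gr34 lesion, the background strain of the mutant, and the sex, age, feeding state and number of animals per library are not given in the sources here. The p-values therefore measure only the spread between these libraries.

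Total counts ran from 18.5 to 31.3 M per library. Gr34 (LOC5570009) was at 24, 22 and 7 counts in the brain of the wild type, 6, 11 and 28 in that of the mutant, and 2 to 16 counts in each fat body library. With the lesion unknown, these counts do not check the genotype labels. Neuron markers took 0.348 to 0.431% of counts in brain and 0.019 to 0.087% in fat body. Fat body markers, picked by text in gene descriptions, took 0.243 to 0.438% in fat body and 0.093 to 0.150% in brain. This text also matched pyruvate dehydrogenase phosphatase and kinase genes, so the share is not that of fat body genes alone. The brain libraries also held 20.4 to 27.1% of their counts in genes picked as photoreceptor markers, arrestin domain-containing genes among them. These took 22.6 to 27.1% in wild type and 20.4 to 22.3% in the mutant. Replicates spread more in fat body (common biological coefficient of variation 0.406) than in brain (0.210), so fat body differences of the same size are less well resolved. In whole tissues, fewer cells of a type and less RNA per cell cannot be told apart.

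The eco pair was a mirror image in brain: the copy that supplied most of the RNA in wild type was the minor copy in the mutant, and their sums overlapped between genotypes. LOC5568379 lies on chromosome 3 at 240787652 to 240822810 (AaegL5.0, plus strand, 5 exons). LOC5568392, with 4 exons, lies on a scaffold that the reference gene table leaves unplaced and that holds 2 genes in all, although the deposited table assigns it to chromosome 3. In wild-type brain LOC5568379 had 15.6, 16.4 and 15.3 CPM (counts relative to the scaled library size) in the 3 libraries. In mutant brain it had 3.11, 3.55 and 3.13 CPM. LOC5568392 had 3.36, 1.19 and 0.925 CPM in wild-type brain against 14.5, 11.8 and 13.8 CPM in mutant brain. Every mutant library was thus below every wild-type library for one copy and above every wild-type library for the other. The log2 fold change, mutant over wild type, was -2.27 (SE 0.12) for LOC5568379 and 2.82 (SE 0.45) for LOC5568392. The sum of both copies was 18.9, 17.6 and 16.3 CPM in wild type against 17.6, 15.4 and 16.9 CPM in the mutant, and the genotypes overlapped. Its log2 fold change was -0.08 (SE 0.11, 95% interval -0.33 to 0.17).

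On the deposited TPM scale, which divides by transcript length and so allows copies to be compared, LOC5568379 was at 9.88 ± 1.04 TPM and LOC5568392 at 1.25 ± 0.91 TPM in wild-type brain (SD, n = 3). In mutant brain they were at 2.08 ± 0.17 and 9.17 ± 1.31 TPM. The lengths behind these values, worked out from the ratio of counts to TPM, are 2936 and 2717 bases, so the copies differ little in length. LOC5568392 was the less even of the copies in wild-type brain, where its first library stood well above the other two.

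**Figure D1:**
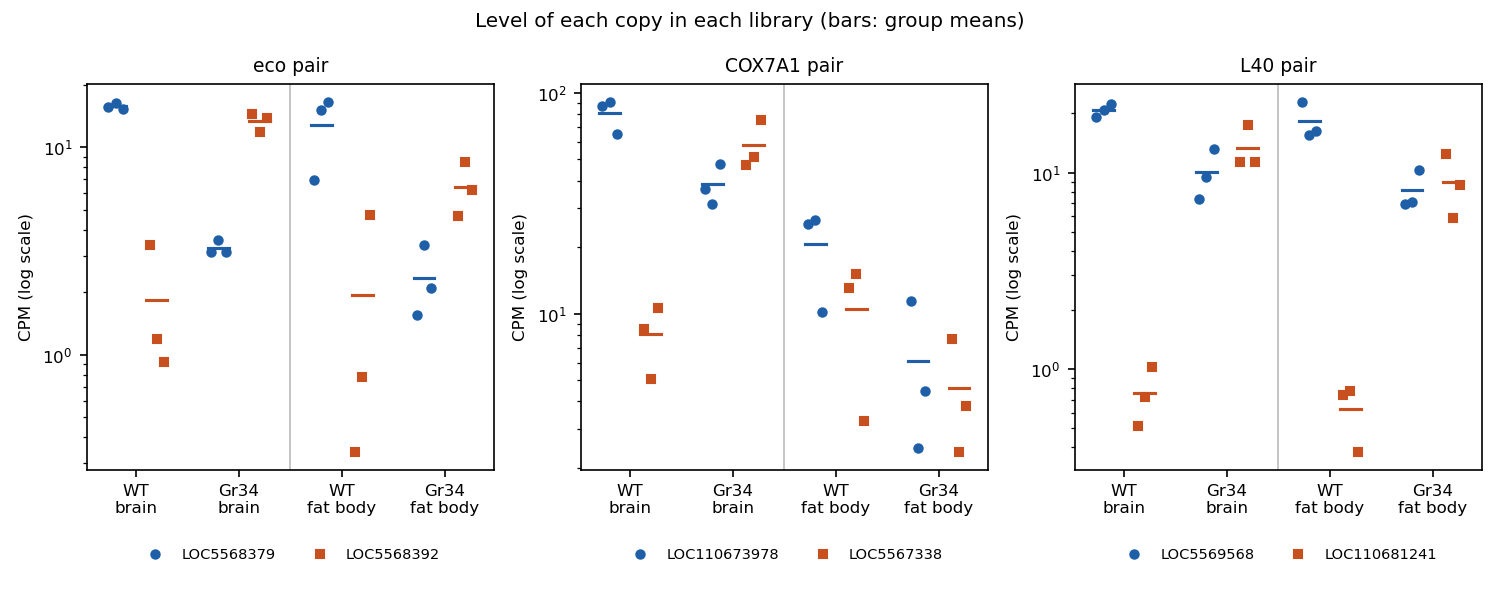
Level of each copy in each library, in CPM on a log scale, for the 3 pairs in the 4 groups (WT, wild type; Gr34, mutant); points are libraries and bars are group means (n = 3). In brain the blue copy is lower and the orange copy higher in all 3 mutant libraries than in any wild-type library, and in fat body the same holds for both copies only in the L40 pair.

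In fat body the eco copies pointed the same ways as in brain, but neither passed the test. LOC5568379 had 6.91, 15.0 and 16.5 CPM in wild type and 1.55, 3.37 and 2.09 CPM in the mutant, with no overlap between genotypes. Its log2 fold change was -2.44 (SE 0.46), with an adjusted p of 0.108 by edgeR's quasi-likelihood test. DESeq2 called it (adjusted p = 9.47e-05), and the authors' deposited table gives it an adjusted p of 9.51e-05. It was also called by edgeR without wild-type fat body replicate 1 (0.0495), the library in which its wild-type level was lowest. LOC5568392 had 0.340, 0.778 and 4.70 CPM in wild type and 4.65, 8.45 and 6.22 CPM in the mutant. Its wild-type level rests on 5.5, 17.75 and 124.5 counts. The genotypes overlapped, because wild-type replicate 3 stood at the level of the lowest mutant library. Its log2 fold change was 1.71 (SE 0.86), with an edgeR adjusted p of 0.783. Without wild-type replicate 3 the difference was 3.49. The sum was 7.20, 15.8 and 21.2 CPM in wild type and 6.20, 11.9 and 8.25 CPM in the mutant (log2 fold change -0.75, SE 0.44, 95% interval -1.78 to 0.28, edgeR adjusted p = 0.902).

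The fat body libraries also differed in ovary and germline markers, which took 0.029, 0.142 and 0.198% of counts in the wild-type libraries and 0.052, 0.244 and 0.082% in the mutant libraries. Within each genotype the eco sum had the same order of libraries as this marker share. Of the 10 markers, 2 were at 0 in all 6 fat body libraries. The brain libraries held about 0.001% of these markers, with 3 of the 10 at 0 in all 6. Their part in the fat body eco values was not tested.

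The share of the pair's counts held by LOC5568392 shows the exchange within each library and needs no scaling between libraries. In brain it was 17.7, 6.8 and 5.8% in wild type and 82.2, 76.8 and 81.5% in the mutant. In fat body it was 4.3, 4.9 and 22.3% in wild type and 75.0, 71.4 and 75.1% in the mutant. The mean difference was 70.1 percentage points in brain and 63.4 points in fat body. In fat body the genotypes did not overlap, and the two-sided exact permutation p was 0.1, the smallest that 3 libraries against 3 can give (0.1 after adjustment over the 3 pairs). The pair held 317 to 586 counts per brain library and 96.0 to 560 per fat body library. The widest 95% Wilson interval of a share, in mutant fat body replicate 1, ran from 65.5 to 82.6%, far above the wild-type shares; such intervals cover counting error only.

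The COX7A1 copies also had opposite differences in brain. They lie 8.8 kb apart on the minus strand of chromosome 2 (AaegL5.0), LOC110673978 at 472327700 to 472328389 with 4 exons and LOC5567338 at 472337199 to 472338232 with 3 exons, and share the alias AAEL006000. In wild-type brain LOC110673978 had 86.9, 90.6 and 64.7 CPM, and in mutant brain 36.7, 31.3 and 47.7 CPM. LOC5567338 had 8.53, 5.07 and 10.6 CPM in wild type and 47.1, 51.0 and 75.0 CPM in the mutant. Again the genotypes did not overlap for either copy. The log2 fold changes were -1.07 (SE 0.19) and 2.84 (SE 0.31). The sum, at 95.4, 95.7 and 75.4 CPM in wild type and 83.7, 82.3 and 122.7 CPM in the mutant, overlapped between genotypes, with a log2 fold change of 0.12 (SE 0.18, 95% interval -0.30 to 0.54). The sign of this sum is not settled: on the TPM scale, where the copies count by length, it was -0.14.

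The lengths behind the TPM values differ for this pair, at 542 bases for LOC110673978 and 790 bases for LOC5567338. Per length, wild-type brain had 276 ± 65 TPM of LOC110673978 and 18.5 ± 5.3 TPM of LOC5567338 (SD, n = 3). Mutant brain had 132 ± 25 and 135 ± 29 TPM, so that the copies stood at one level there. LOC5567338 held 8.9, 5.3 and 14.1% of the pair's counts in wild-type brain against 56.2, 61.9 and 61.1% in mutant brain, a difference of 50.3 percentage points. By TPM the difference was 43.8 points.

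In fat body the COX7A1 copies were not mirrored. LOC110673978 had 25.4, 26.4 and 10.1 CPM in wild type and 11.4, 2.46 and 4.46 CPM in the mutant (log2 fold change -1.77, SE 0.62, edgeR adjusted p = 0.496). LOC5567338 had 13.1, 15.1 and 3.26 CPM in wild type and 7.69, 2.36 and 3.80 CPM in the mutant (log2 fold change -1.19, SE 0.65, edgeR adjusted p = 0.838). Both estimates were negative and neither copy passed the test, and the genotypes overlapped for both because wild-type replicate 3 was low and mutant replicate 1 high. The sum was 38.4, 41.5 and 13.4 CPM in wild type and 19.0, 4.82 and 8.25 CPM in the mutant. Its log2 fold change was -1.55 (SE 0.61, 95% interval -2.96 to -0.13), and the edgeR adjusted p was 0.575. On the TPM scale LOC110673978 did not overlap between genotypes, with 37.2 TPM in its lowest wild-type library and a mean of 13.8 ± 5.5 TPM (SD, n = 3) in the mutant, and neither did the sums, at 45.4 to 116 TPM in wild type and 15.9 to 29.3 TPM in the mutant. Gut protease markers (98 genes, 85 of them detected) took 0.038, 0.542 and 1.02% of counts in the 3 mutant fat body libraries. They were higher in the 2 mutant libraries with the lower COX7A1 sums. In wild type they took 0.094, 0.036 and 0.040%, and the library with the lowest sum did not have the highest share. Muscle markers took 0.179, 0.281 and 0.136% in wild type, in the order of the sums. In the mutant they took 0.151, 0.182 and 0.170%, not in that order. The part of either marker set in these values was not tested.

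In fat body the COX7A1 share of LOC5567338 was also higher in the mutant libraries, by less than in brain, but no exact p under 0.05 was possible. LOC5567338 held 34.0, 36.4 and 24.3% of the pair in wild-type fat body against 40.4, 49.0 and 45.8% in mutant fat body, without overlap. The difference was 13.5 percentage points (two-sided exact permutation p = 0.1, the smallest possible, and 0.1 adjusted over the 3 pairs). Whether it differs from the 50.3 points of the brain was not tested, since the brain values chose the pair. The widest Wilson interval in fat body, in mutant replicate 2, ran from 41.1 to 56.9%. In the libraries nearest each other the intervals overlapped, at 33.4 to 39.4% in wild-type replicate 2 and 35.0 to 46.2% in mutant replicate 1.

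**Figure D2:**
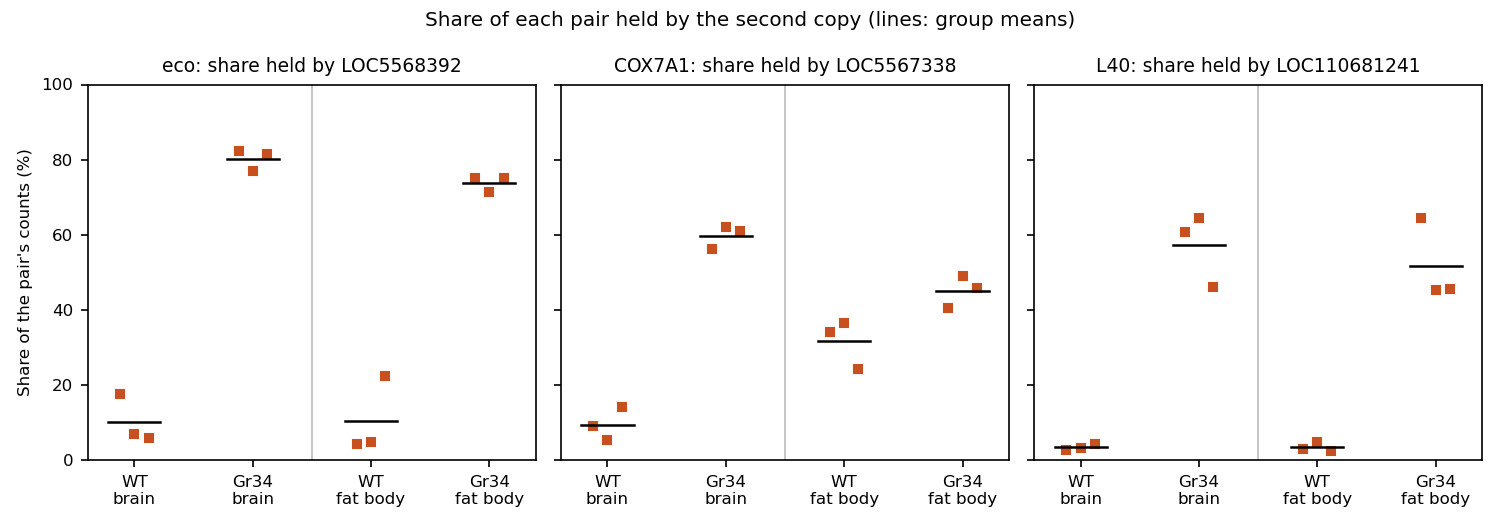
Share of each pair's counts (%) held by the copy that was higher in mutant brain, in each library of the 4 groups; points are libraries and lines are group means (n = 3). The share is higher in every mutant library than in every wild-type library of the same tissue for all 3 pairs, and the gap is smallest for COX7A1 in fat body, where it runs from 24.3 to 36.4% in wild type and from 40.4 to 49.0% in the mutant. In brain this follows from the choice of the pairs, and shares of other pairs were not computed.

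The L40 copies had mirrored values in both tissues, and in both the genotypes did not overlap for either copy. LOC5569568 lies on chromosome 1 at 71881370 to 71882209 (AaegL5.0, plus strand, 2 exons), and LOC110681241, also with 2 exons, lies on an unplaced scaffold of 3 genes that the deposited table assigns to chromosome 1. In brain LOC5569568 had 19.2, 20.9 and 22.3 CPM in wild type and 7.35, 9.53 and 13.2 CPM in the mutant (log2 fold change -1.05, SE 0.21). LOC110681241 had 0.517, 0.724 and 1.03 CPM in wild type and 11.4, 17.4 and 11.3 CPM in the mutant (log2 fold change 4.17, SE 0.30). Its wild-type level rests on 16 to 19.5 counts per library, and the genotypes did not overlap for either copy. The sum was 19.7, 21.6 and 23.3 CPM in wild type and 18.7, 26.9 and 24.5 CPM in the mutant, an overlap, with a log2 fold change of 0.12 (SE 0.15, 95% interval -0.23 to 0.47).

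In fat body LOC110681241 rose from 0.736, 0.778 and 0.379 CPM in wild type to 12.5, 5.89 and 8.64 CPM in the mutant. It was the 1 member of the 6 called there (log2 fold change 3.83, SE 0.47, edgeR adjusted p = 0.0390), in a tissue where 0.234% of all genes tested were called. The direction held in every library, 3 of 3 against 3 of 3, and DESeq2 called it as well. The edgeR call was lost when any one of the 6 fat body libraries was left out, with adjusted p from 0.0538 to 0.251, while the log2 fold change stayed between 3.55 and 4.06. LOC5569568 had 22.9, 15.6 and 16.4 CPM in wild-type fat body and 6.92, 7.12 and 10.3 CPM in the mutant, without overlap. Its log2 fold change was -1.17 (SE 0.29), and it did not pass edgeR's test (adjusted p = 0.232), though it did pass DESeq2's (0.0249) and has an adjusted p of 0.0236 in the authors' deposited table. The sum was 23.6, 16.3 and 16.8 CPM in wild type and 19.4, 13.0 and 19.0 CPM in the mutant. Its log2 fold change was -0.14 (SE 0.28, 95% interval -0.79 to 0.50, edgeR adjusted p = 1.00), and it turned positive without wild-type replicate 1 (0.07) or mutant replicate 2 (0.03).

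Per length, wild-type brain had 48.7 ± 3.5 TPM of LOC5569568 and 1.74 ± 0.48 TPM of LOC110681241 (SD, n = 3), and mutant brain 23.5 ± 5.7 and 31.9 ± 7.9 TPM. In fat body the wild type had 34.7 ± 6.6 and 1.22 ± 0.45 TPM, and the mutant 15.4 ± 6.1 and 15.7 ± 0.4 TPM. LOC110681241 held 2.6, 3.3 and 4.3% of the pair in wild-type brain against 60.8, 64.6 and 46.2% in mutant brain. In fat body it held 3.1, 4.8 and 2.4% in wild type and 64.4, 45.3 and 45.6% in the mutant. The differences were 53.8 percentage points in brain and 48.4 points in fat body, the latter again without overlap and at the smallest two-sided exact permutation p of 0.1 (0.1 adjusted over the 3 pairs). The wild-type shares were alike in the tissues, each within 2.4 to 4.8%.

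In fat body 0 of 3 sums were called by edgeR, against 0.225% of all rows in that table, and also 0 by DESeq2 and by limma-voom. By edgeR 1 of the sums, that of COX7A1, had an unadjusted p under 0.05, with an interval of -2.96 to -0.13. The intervals are wide: the eco and COX7A1 sums in fat body leave room for differences of more than 1 log2 unit, and a p that misses the threshold does not show equal levels. In brain, where the sums are made of the values that chose the pairs and are a description, the 3 intervals all lay between -0.33 and 0.54. By comparison, all 6 copies had non-overlapping genotypes in brain, where 28.6% of genes tested did, and 3 of 6 in fat body, where 11.0% did. The brain count follows from the choice of the pairs, and nothing is read from it. Copy shares were not computed for other pairs, so how often they do not overlap in fat body is unknown.

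**Figure D3:**
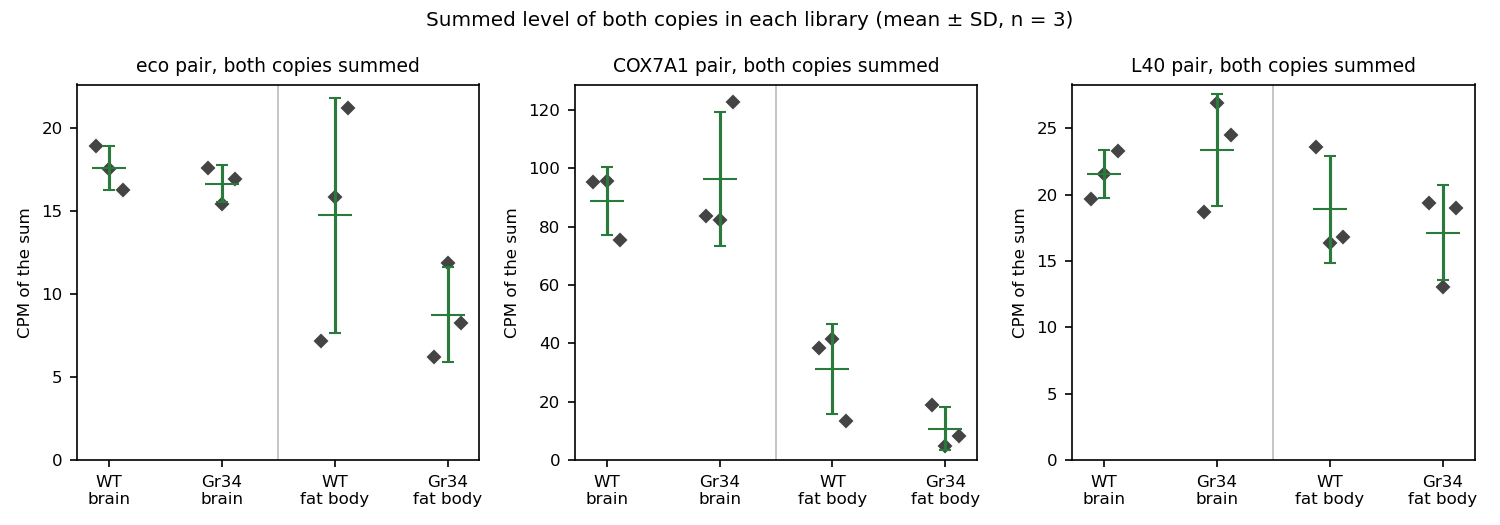
Summed CPM of both copies of each pair in each library; points are libraries, and green marks are the group mean ± SD (n = 3). The genotypes overlap for every pair in both tissues, and in fat body the COX7A1 sums run from 13.4 to 41.5 CPM in wild type and from 4.82 to 19.0 CPM in the mutant.

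**Figure D4:**
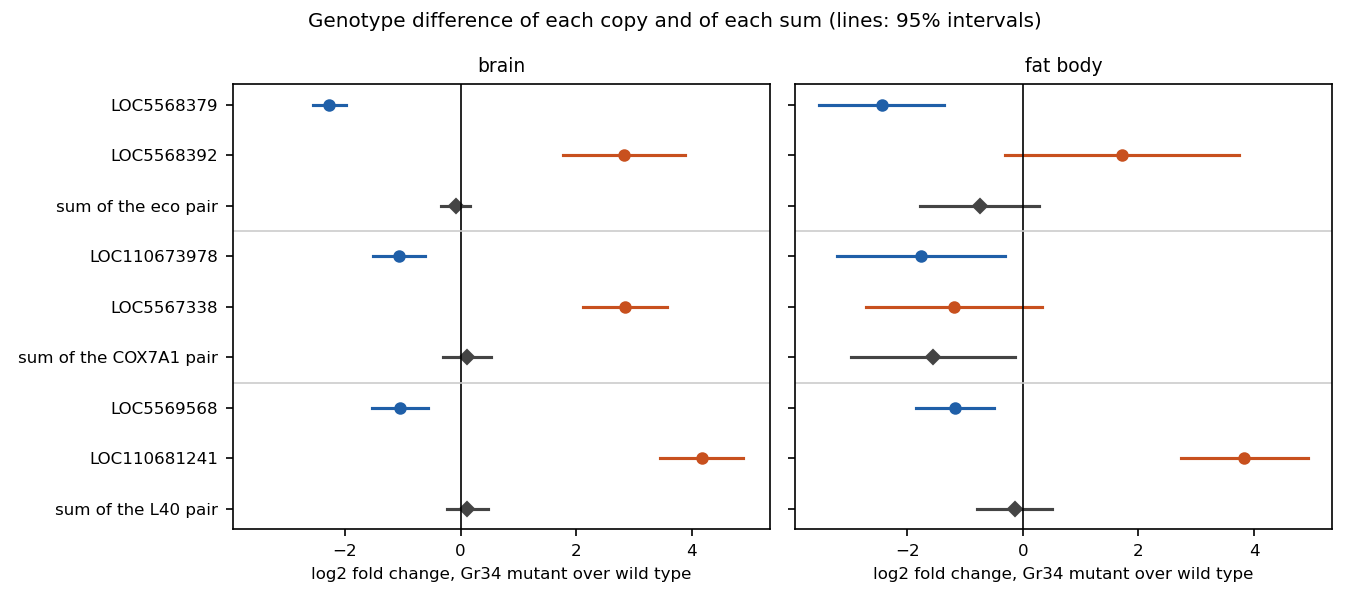
Log2 fold change (mutant over wild type) of each copy and of each summed pair from edgeR, with 95% intervals, in brain and in fat body (3 libraries against 3). In brain the copies of each pair lie on opposite sides of 0 and the sums near 0; in fat body the eco and L40 copies lie on opposite sides of 0, with an interval that includes 0 for LOC5568392, both COX7A1 copies lie below 0, and the sums are at -0.75 (eco), -1.55 (COX7A1) and -0.14 (L40).

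The copies can share reads, and how reads that match several places were counted is unknown here. Counts were not whole numbers in 7 of 12 libraries for both eco genes and in all 12 for both COX7A1 genes. Among the L40 genes this was so in 6 libraries for LOC5569568 and in 11 for LOC110681241. The split between copies is therefore uncertain to the extent that their sequences agree. The sums are uncertain too where reads also match places outside the pair, which was not tested. In addition, 5 of the 6 genes overlap a gene on the other strand, by 168 bases (LOC5568379), 148 bases (LOC5568392), 29 bases (LOC110673978), 11 bases (LOC5567338) and 8 bases (LOC110681241), and whether counting used strand is unknown here.

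Each copy has, among its nearest genes, one that carries the same name, "-like" aside, as a gene near its partner; the other neighbours do not. This comparison was added after the values were seen. The gene on the opposite strand that overlaps LOC5568379 (LOC5568391) and the one that overlaps LOC5568392 (LOC110680448) are both described as IQ and AAA domain-containing protein 1-like. Their counts were too low to be tested. LOC5568391 had 12, 8 and 10.5 counts in wild-type brain against 0, 0.5 and 0 in mutant brain, and 1.5, 7.25 and 11.5 in wild-type fat body against 0, 0 and 0.5 in the mutant. LOC110680448 had 3, 2.5 and 0 counts in wild-type brain against 12, 12.5 and 9 in mutant brain, and 0, 0.25 and 2 against 4, 8.5 and 1.5 in fat body. In brain the counts of each IQ and AAA gene thus stood on the same side as those of the eco copy it overlaps. Whether these few counts hold reads of that eco copy from the overlap was not tested.

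At the COX7A1 copies the overlapping genes are coiled-coil domain-containing protein 28A (LOC5567337) and a 28A-like gene (LOC110677248). They had 24.3 and 24.5 CPM, and 4.17 and 5.83 CPM, in wild-type and mutant brain, and neither was called (edgeR adjusted p = 0.972 and 0.0934). Near the L40 copies lie LOC5578884 on chromosome 1 and LOC5569569 on the scaffold, both described as pre-mRNA-processing factor 39. LOC5578884 had 87.2 CPM in wild-type and 77.3 CPM in mutant brain. LOC5569569 had 5.82 and 6.38 CPM, and neither was called (edgeR adjusted p = 0.489 and 0.646).

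Of the 22 distinct genes among the nearest 3 on each side of the members, 19 were tested in brain, where 8.86% of all genes tested were called, and 1 was called higher and 2 lower in the mutant. In fat body, where 0.234% of all genes tested were called, 18 were tested and 1 was called higher. The higher gene was the same in both tissues, LOC110681240, the remaining gene of the L40 scaffold, described as digestive organ expansion factor homolog, a nucleolar protein in zebrafish. It had 2, 3.25 and 1 counts in wild-type brain against 75.75, 64.25 and 56.5 in mutant brain (log2 fold change 5.17, edgeR adjusted p = 0.000763). In fat body it had 6.25, 10.75 and 14 counts in wild type against 163.25, 200 and 127.25 in the mutant (log2 fold change 4.12, edgeR adjusted p = 0.0333). It overlaps LOC110681241 by 8 bases on the opposite strand. No gene at all was called in fat body without wild-type replicate 2, mutant replicate 1 or mutant replicate 3. The genes called lower in brain were uncharacterized: LOC110677786, near LOC5568379, fell from 2.66 to 0.270 CPM (log2 fold change -3.27, edgeR adjusted p = 0.00297), and LOC110674435, next to LOC5569568, from 3.40 to 1.26 CPM (-1.43, 0.0106). The other genes beside the placed eco copy, such as BLOC-1-related complex subunit 7 (11.8 and 12.5 CPM) and mitochondrial tryptophan--tRNA ligase (12.7 and 13.4 CPM), were not called in brain.

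Another cytochrome c oxidase subunit 7A gene, LOC5569566, lies near LOC5569568. It had 324 CPM in wild-type and 313 CPM in mutant brain, and 346 and 300 CPM in fat body. It was not called in either tissue (edgeR adjusted p = 0.878 and 1.00). Its description names subunit 7A without the 1.

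Other genes of the same complexes are set beside the shares of all genes tested that were called, 8.86% in brain and 0.234% in fat body. Of 10 other cohesin genes tested, edgeR called 0 in brain and 0 in fat body. DESeq2 and limma-voom also called 0, and 2 in brain and 0 in fat body had an unadjusted p under 0.05 by edgeR. The median log2 fold change was -0.14 in brain and -0.02 in fat body, against 0.00607 and -0.00365 over all genes tested. Of 11 other nuclear cytochrome c oxidase subunits tested, 1 was called in brain, subunit 5A (LOC5565701), which rose from 234 to 448 CPM (log2 fold change 0.94, edgeR adjusted p = 0.00616). In fat body 0 of the 11 were called by edgeR, DESeq2 or limma-voom, and 0 had an unadjusted p under 0.05. The median of the list was 0.04 in brain and -0.19 in fat body.

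Of 47 other genes of the mitochondrial large ribosomal subunit tested, 2 were called higher and 5 lower in mutant brain by edgeR, 7 in all, as by limma-voom, and 8 by DESeq2, with a median log2 fold change of -0.01. L43 had the largest difference of these, at -1.66 for both of its loci (LOC110681506 and LOC5580284), which had nearly equal counts and are uncertain as separate genes. L37 (LOC5576132) rose from 28.3 to 53.0 CPM (log2 fold change 0.91, edgeR adjusted p = 0.0199), and an L44-like gene (LOC110680233) fell from 12.3 to 7.63 CPM (-0.69, 0.0184). In fat body edgeR and limma-voom called 0 of the 47 and DESeq2 called 2, and 2 had an unadjusted p under 0.05 by edgeR. The median there was -0.18. The mitochondrial large rRNA itself, measured after the values were seen, took 0.533, 0.489 and 0.579% of counts in wild-type brain against 0.696, 0.792 and 1.018% in mutant brain, without overlap. In fat body it took 0.422, 0.694 and 0.248% and 0.649, 0.389 and 0.304%, with overlap. Its part in the values of the mitochondrial genes was not tested.

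Over the 12 libraries the log2 CPM of the eco copies had a Pearson r of -0.66 with each other, that of the L40 copies -0.87, and that of the COX7A1 copies 0.49. The points fall into 4 groups that share tissue and genotype, so these r describe the group pattern and not a relation within groups. Among 12763 genes compared, those most like LOC5568379 were LOC110676769, LOC110676653 and LOC110678342, each with r = 0.97. All are uncharacterized, and the first 2 had no count in any of the 6 mutant libraries. For LOC5568392 the nearest were LOC110676701 (0.94), LOC110675735 (0.91) and cell division cycle and apoptosis regulator protein 1 (LOC5575286, 0.90), a transcriptional coactivator in mammals. The last went from 23.3 to 37.0 CPM in brain. The CPM of genes named for likeness, here and in the next paragraph, is per total library count. It lacks the scaling used for the members, so the scales differ.

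For LOC110673978 the nearest gene was lachesin (LOC5577497, 0.98), an immunoglobulin superfamily cell surface protein, with 39.0 and 27.8 CPM in wild-type and mutant brain and 16.8 and 6.18 CPM in fat body. LOC110676419 and LOC110680661 followed (0.96 each). For LOC5567338 they were LOC110679658 (0.88), fumarate hydratase (LOC5570205, 0.85), a tricarboxylic acid cycle enzyme, and LOC5563971 (0.85). Fumarate hydratase had 90.0 and 117 CPM in brain and 76.0 and 63.7 CPM in fat body. LOC5569568 was most like a C9orf78 homolog (LOC110680930, 0.93), which went from 1.61 to 0.0159 CPM in brain. LOC110678026 (0.93) and LOC110678975 (0.92) came next. LOC110681241 was most like LOC110675759 (0.97), the mitochondrial tRNA-Lys (0.97) and a ras-related protein rapB-like gene (LOC110674264, 0.97), which had at most 0.5 counts in any wild-type library.

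To see how common such pairs are, all 896 sets of exactly 2 protein-coding genes whose descriptions match once a trailing "-like" is left out were examined. In brain 671 had both genes tested by edgeR, and 8 of them, 1.19%, had one copy called higher and the other lower. Both genes were called in the same direction in 10, one gene was called in 73 and none in 580. Over the genes each tool tested, DESeq2 called 14 pairs on both sides and limma-voom 8. By edgeR 22 were mirrored at unadjusted p under 0.05. The 3 pairs described here are among the 8 of edgeR. In the other 5 the increase was smaller than in any of these 3 pairs, which were chosen by their brain values. Their decrease was larger than that of COX7A1 (-1.07) and of L40 (-1.05), and smaller than that of eco (-2.27). Zinc finger protein weckle, a factor of the Toll pathway in Drosophila, had log2 fold changes of 1.65 (LOC110681129) and -2.15 (LOC5577401). Bone morphogenetic protein receptor type-1B, which binds ligands of the BMP family, had 1.21 (LOC5575840) and -1.68 (LOC5571852). Protein EFR3 homolog cmp44E had 0.89 (LOC110674003) and -1.89 (LOC5569747). The 23 kDa integral membrane protein had 0.60 (LOC5578831) and -1.47 (LOC5567694), and integral membrane protein GPR180 had 0.44 (LOC5574010) and -1.12 (LOC110677757).

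At least one copy was unplaced in 6 of the 8 pairs mirrored by edgeR in brain, from 286 such pairs tested, and both copies were placed in 2, from 385. Of all genes tested in brain, 81 of 711 unplaced ones were called (11.39%) and 969 of 11137 placed ones (8.7%). In fat body, where 652 pairs had both genes tested, 0.0% were mirrored: edgeR called 0 pairs on both sides and limma-voom 0, DESeq2 called 2, and 3 were mirrored at unadjusted p under 0.05 by edgeR. One gene of the pair was called in 2 pairs, of which L40 is 1.

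**Figure D5:**
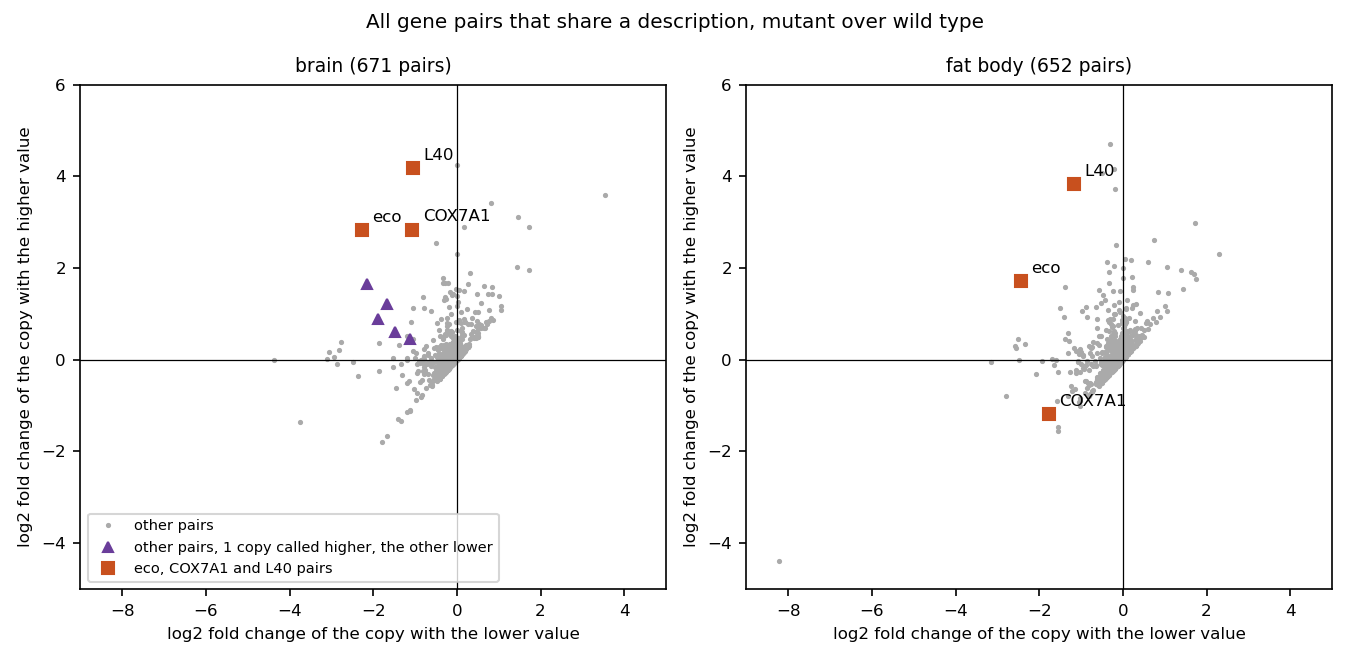
Each point is a pair of genes with one description, with the lower of its log2 fold changes (mutant over wild type, edgeR) on the horizontal axis and the higher on the vertical axis, in brain (671 pairs) and fat body (652 pairs). Squares are the eco, COX7A1 and L40 pairs and triangles the other 5 pairs with one copy called higher and the other lower in brain; in fat body L40 and eco remain in the upper left and COX7A1, at -1.77 and -1.19, lies in the lower left.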

How the data were processed

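Per the labels, polyA RNA was made into libraries with random primers. The values used here are the authors' deposited estimated counts, of which 25.39% were not whole, and their deposited TPM, which rests on the transcript lengths used. Result tables that the authors deposited add, per the file headers, each tissue's mean normalized count (signal), its log2 fold change, its score and its p-value, all from DESeq2. The submitters' processing notes name FastQC, STAR, featureCounts (Subread) and DESeq2. Strand, multiple mapping and genome build are not stated there. Positions are those of AaegL5.0, whose start and end matched for 18363 of 18393 genes with a position in both.

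Rounded counts of each tissue's 6 libraries were tested with edgeR 4.0.16 under R 4.3.3. The settings were filterByExpr (count of 10, total of 15), TMM scaling and the robust quasi-likelihood test (two-sided), adjusted by Benjamini-Hochberg over all genes tested. "Called" means an adjusted p under 0.05. CPM uses TMM-scaled library sizes, except for the genes most alike in log2 CPM, whose CPM is rounded counts over the library's total count. Sums came from another fit in which the summed counts of a pair replaced its copies. The copy share was one copy's percentage of the sum. Alternatives were DESeq2 1.42.0 and limma-voom (limma 3.58.1); in edgeR, size factors from DESeq2 or no scaling beyond library size; other filters (a total above 0, or 1 CPM in 3 libraries); one model of all 12 libraries; the replicate number as a block; rounding down; limma on TPM with pseudocounts of 1 and 0.1; and leaving out single libraries. The fits were tested on simulated data. Replicates of a group differed beyond counting error (chi-square over degrees of freedom, 22.4 to 342).

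The members and gene lists were chosen with earlier results of these data known. Other genes are named as the 3 most alike in log2 CPM, the nearest 3 on each side, and up to 4 called genes per list and tissue. Marker lists are text patterns on descriptions, from which receptors and inhibitors were dropped after the values were seen. The patterns also matched CUGBP Elav-like genes (neuron), arrestin domain-containing genes (photoreceptor) and pyruvate dehydrogenase phosphatase and kinase genes (fat body), which were kept. No sequences are printed.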

Additional observations from a re-analysis of the deposited data

How the results depend on the processing

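The 6 copies kept their direction in 102 of 102 alternative values in fat body. They also did in 102 of 102 in brain, but the brain directions chose the copies, so that count says nothing of stability. The sums kept theirs in 46 of 51 in brain and 49 of 51 in fat body, and 0 of 3 sums were called by any alternative. The sums that turned were COX7A1 in brain (-0.14 with either TPM pseudocount, and -0.10 without mutant replicate 3, with a range of -0.10 to 0.21 over left-out libraries), eco in brain (0.0167 and 0.0183 with TPM pseudocounts of 1 and 0.1) and L40 in fat body (0.0693 without wild-type replicate 1, 0.03 without mutant replicate 2, range -0.24 to 0.0693). The brain copy share of COX7A1 moved from 50.3 to 43.8 points by TPM.

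In fat body 1 copy was called; DESeq2 called 3, the fit of all 12 libraries 3, the fit with a replicate block 2 and library size only 0, and left-out libraries gave 0 to 1. LOC110681241 was at 3.73 with library size only (adjusted p = 0.0501 by edgeR) and at 3.55 to 4.06 with a library left out. LOC5568379 was called by DESeq2 (-2.44), in the fit of all 12 libraries (-2.41, 0.00501) and with the replicate block (-2.43, 0.0484), and ran from -2.81 to -2.21 over left-out libraries. LOC5569568 was called by DESeq2 (-1.15) and in the fit of all 12 libraries (-1.12, 0.0442). The brain values chose the copies, so counts of brain calls say nothing of stability; they were 6, with 5 under the replicate block, 3 in the fit of all 12 libraries and 3 to 6 over left-out libraries (3 when wild-type replicate 2 or mutant replicate 1 was dropped). The cause of these shifts was not tested.

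Genes called in fat body numbered 27, but 381 by DESeq2, 303 in the fit of all 12 libraries, 55 without the filter, 54 with the replicate block, 50 with log2(TPM + 0.1), 1 by library size only and 0 to 37 over left-out libraries. In brain they numbered 1050, but 1730 by DESeq2, 378 in the fit of all 12 libraries, 767 with the block and 405 to 979 over left-out libraries. Whether replicate numbers pair the libraries is not known. Deviations of same-numbered libraries had r of 0.007, 0.127 and 0.230 in brain and 0.145, 0.310 and -0.223 in fat body. Not every library was most like its own number, and 3 libraries per group are too few to decide.

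With 3 libraries per genotype no exact p can fall under 0.1, and in fat body the size of the LOC5568392 difference depends on wild-type replicate 3. How reads that match several places were counted is unknown, and the sequences of the copies were not compared here. The split between copies is uncertain to that extent, as are the sums where reads match places outside the pair.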
